A study of Mus musculus with 9 samples.

Results

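Arsb, the lysosomal enzyme arylsulfatase B, and 8 further genes of sulfate ester and glycosaminoglycan breakdown were followed in microglia, the macrophages that reside in brain tissue. The 9 genes were Arsb, Arsa, Arsg, Sgsh, Ids, Idua, Galns, Gusb and Sumf1, out of 22180 genes with 1 symbol on the arrays, and all 9 were measured. The genes were chosen by function with earlier results of these arrays known, and which measured values led to which gene is not recorded. Arsb is treated here as chosen for its difference between FAD and wild type, which is therefore given as a description with no p-value for the 9 genes. The FAD DKO values may have entered the choice as well. Where a gene had several probe sets, the one with the highest mean over all arrays stood for it, which concerned Arsb alone among the 9.

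The microglia were sorted by FACS from brains of female C57Bl/6 mice aged 24 to 28 weeks, with 3 arrays in each of 3 genotypes. FAD DKO mice carried the 5X familial Alzheimer's disease transgenes, floxed Hdac1 and Hdac2 alleles, and Cx3cr1CreERT2, a tamoxifen-inducible Cre placed at the fractalkine receptor gene, which is active in microglia and other cells that express that receptor. FAD mice carried the same transgenes and the floxed alleles without Cre, and wild type mice are labelled with neither. Every animal, controls included, received 8 mg tamoxifen at 6 weeks of age. FAD DKO and FAD thus differ in the Cre allele as well as in the deletion, and FAD and wild type differ in the floxed alleles as well as in the transgenes. Nothing in the labels says whether an array holds RNA of 1 animal or of several, so p-values measure the spread between these samples, which may be technical.

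Glycosaminoglycans are long, mostly sulfated sugar chains, such as chondroitin, dermatan, heparan and keratan sulfate, that sit on proteoglycans of the cell surface and the brain's extracellular matrix. Cells take them up and take them apart in the lysosome from the chain end inward, with sulfatases removing sulfate groups and glycosidases removing the sugars in a fixed order. Each sulfatase works only after the Sumf1 product, the formylglycine-generating enzyme, has oxidised a cysteine of its active site in the endoplasmic reticulum. In humans, loss of most of these enzymes causes lysosomal storage diseases, many of which affect the brain. Of the 9 genes, Arsa matches the group name least, since the main substrate of arylsulfatase A is the myelin lipid sulfatide, and Sumf1 encodes the activator and not a degrading enzyme.

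The arrays were alike in overall signal, with medians from 5.35 to 5.4 on the deposited log2 scale. All 8 microglia markers lay above the median of all probe sets, and their mean per array ran from 10.95 to 11.06 in FAD DKO, up to 11.07 in FAD and from 11.13 to 11.16 in wild type. In FAD minus wild type all 8 lay below 0, with a median of -0.09. Cx3cr1, the gene that holds the Cre in FAD DKO, is 1 of these markers. It was lower in FAD DKO by -0.33 against wild type (SE 0.0668, adjusted p = 0.133 in limma) and by -0.25 against FAD (SE 0.0668, adjusted p = 0.383). The mean of the 5 monocyte and neutrophil markers varied most, from 6.93 to 8.84 in FAD DKO, from 8.16 to 8.37 in FAD and from 7.41 to 8.25 in wild type; its part in the results was not tested. Marker means of neurons, astrocytes, oligodendrocytes, vessels, border macrophages and lymphocytes stayed between 4.44 and 5.74 on every array. Hdac1 averaged 7.56 ± 0.13 in FAD DKO, 8.12 ± 0.086 in FAD and 8.44 ± 0.318 in wild type (SD, n = 3 each). Hdac2 averaged 7.80 ± 0.164 in FAD DKO, 8.48 ± 0.107 in FAD and 8.29 ± 0.086 in wild type (SD, n = 3 each). Both were lowest on the 3 FAD DKO arrays, although the probes may lie outside the deleted exons and then do not check the deletion. Neither reached an adjusted p under 0.05 in limma. FAD DKO minus FAD was -0.56 (SE 0.147, adjusted p = 0.376) for Hdac1 and -0.68 (SE 0.099, adjusted p = 0.159) for Hdac2. Against wild type the values were -0.88 (SE 0.147, adjusted p = 0.0702) and -0.49 (SE 0.099, adjusted p = 0.128). Of the vessel markers, Flt1 was 1.26 higher in FAD DKO than in wild type (SE 0.12, adjusted p = 0.00872 in limma), and the other 4 did not pass. The list had 3 markers above 0 and 2 below, with a median of 0.02, and Pecam1 stood at -0.45 (SE 0.108, adjusted p = 0.219), lower on every FAD DKO array than on any wild type array. Fewer cells of a kind and less RNA per cell cannot be told apart in these bulk samples.

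Arsb signal was high in both FAD genotypes and lower in wild type. It read 11.26, 11.29 and 11.19 in FAD DKO, 11.18, 11.31 and 11.27 in FAD, and 9.89, 9.70 and 9.85 in wild type on the log2 scale. The FAD DKO and FAD arrays interleaved, and each of these 6 lay above every wild type array, with a gap of at least 1.28 to the highest of them. Arylsulfatase B removes the 4-sulfate of N-acetylgalactosamine in dermatan and chondroitin sulfate, and its loss in humans is Maroteaux-Lamy disease. The groups averaged 11.25 ± 0.0467 in FAD DKO, 11.25 ± 0.0704 in FAD and 9.82 ± 0.0997 in wild type (SD, n = 3 each). FAD stood 1.44 above wild type on the log2 scale, or 2.71-fold, the difference for which the gene is taken to have been chosen.

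In FAD DKO, Arsb rose by 1.43 on the log2 scale (SE 0.0745) over wild type, a 2.69-fold change with a 95% interval from 2.40 to 3.03. In limma its adjusted p was 0.000299, its p the smallest of 22180 genes, and 22 genes had a larger difference. This p is no independent evidence, since the wild type arrays are shared with the difference for which Arsb is taken to have been chosen, and the FAD DKO arrays may have been used too. Between FAD DKO and FAD the Arsb difference was -0.01 (SE 0.0745, adjusted p = 0.984), with a 95% interval from -0.18 to 0.16. That interval allows FAD DKO to have between 0.885 and 1.12 times the FAD level, and this comparison shares its FAD arrays with FAD against wild type.

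**Figure D1:**
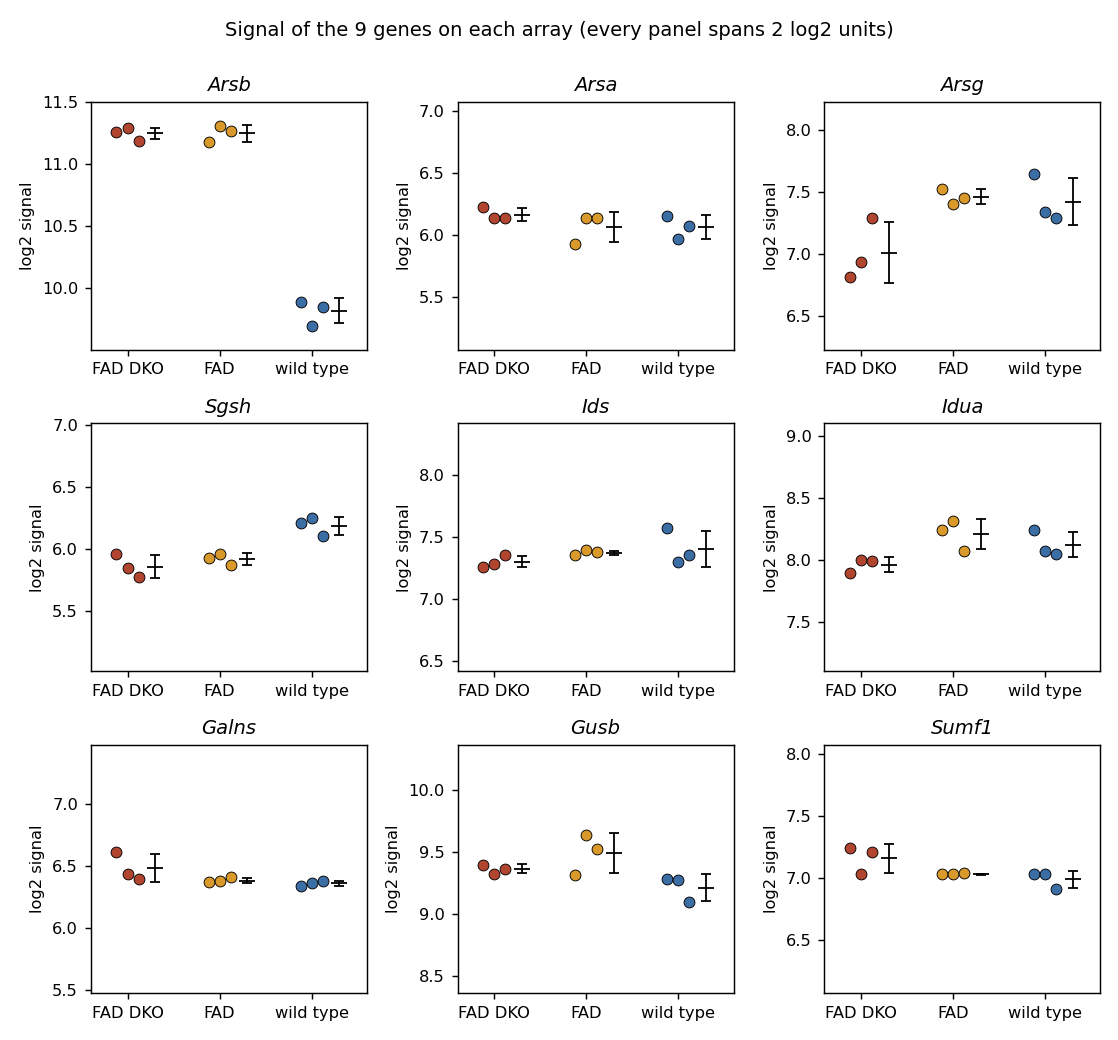
Log2 signal of the 9 genes on each array, with FAD DKO, FAD and wild type from left to right, 1 point per array and the mean ± SD (n = 3) beside the points; each panel spans the same range on its axis. Arsb lies near 11.25 in FAD DKO and FAD and at 9.82 in wild type, while the other 8 genes differ by at most 0.45 between group means.

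A second Arsb probe set also read higher in both FAD genotypes than in wild type. It read 11.06, 11.18 and 11.17 in FAD DKO, 10.83, 11.08 and 11.11 in FAD, and 10.06, 9.87 and 9.79 in wild type. Again no FAD DKO or FAD array overlapped a wild type array. When every probe set was fitted on its own row in limma, this one rose by 1.23 (SE 0.101, adjusted p = 0.00513) in FAD DKO over wild type. It differed by 1.10 between FAD and wild type. Neither value is independent evidence, since the second probe set reads the same gene on the same arrays. The FAD DKO minus FAD difference of this probe set was 0.13 (SE 0.101, adjusted p = 0.73 in limma). Its interval ran from -0.09 to 0.36, so the interval of each probe set includes 0. The mean of both probe sets placed FAD 1.27 above wild type, less than the brighter one alone.

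Promoter sequence of Arsb, from RefSeq on build GRCm38.p6, is shown because Arsb was the 1 gene of the group whose signal differed strongly. The window chr13:93771429-93771708, plus strand, runs 5′ to 3′ from 250 bases before the annotated start to 30 bases from it on, and capitals mark a GC box, GGGCGG searched on both strands.
Arsb promoter: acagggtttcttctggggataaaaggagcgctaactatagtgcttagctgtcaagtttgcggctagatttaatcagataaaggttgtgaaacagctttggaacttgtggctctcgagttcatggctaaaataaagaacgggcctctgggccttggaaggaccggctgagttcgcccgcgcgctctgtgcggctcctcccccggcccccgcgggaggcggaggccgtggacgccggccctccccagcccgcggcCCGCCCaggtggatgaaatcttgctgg
The whole RefSeq window of Arsb, 250 bases before the start and 50 from it on, holds 22 CG pairs. The median is 7 over 32817 windows of the genome, 76.9% of which hold fewer than Arsb, and the Sgsh window holds 21. A GC box stands in 35.6% of all windows.

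Many lysosomal promoters carry an E-box, CACGTG, which reads the same on both strands and is the core of the element bound by TFEB, a regulator of lysosomal genes. Windows were found for 8 of the 9 genes, 2 of them for Arsg, and Galns had none. The Arsg and Ids windows lie well inside the annotated span of the gene and not at its 5′ end, which was not searched. CACGTG stood in the windows of Arsa, Sgsh and Sumf1, 3 of 9 windows, against 7.15% of all windows, and these 3 sites are shown with the motif in capitals because they lie just upstream of the start in each.
Arsa, chr15:89477423-89477452, minus strand: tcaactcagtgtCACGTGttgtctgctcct
Sgsh, chr11:119355522-119355551, minus strand: gggcctgccgtgCACGTGaccgtggggagc
Sumf1, chr6:108185577-108185606, minus strand: agcaccacaggtCACGTGatctccatgggt
Relative to the start in the table, the motif begins at -16 in Arsa, at -29 in Sgsh and at -11 in Sumf1. The CLEAR element, a longer palindrome with GT before this motif and AC after it, was searched as an exact match only. It was in none of the 9 windows and in 0.326% of all. Near matches were not searched, and the Sumf1 site shown has GT before the motif and AT after it. The Arsb window holds no CACGTG, and a match or its absence is a description of letters and not of binding.

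The genes around Arsb were read for comparison, a choice made after its values were seen. Among the 5 nearest measured genes on each side on chromosome 13, in RefSeq order, 0 of 10 passed in limma in any of the 3 comparisons, where 0.0225% of all genes passed for FAD DKO minus FAD, 0.140% for FAD DKO minus wild type and 0.0406% for FAD minus wild type. With shares this low, 0 of 10 is near the background. At an unadjusted p under 0.05 there were 0, 1 and 1 in the same order, Jmy both times. FAD DKO minus FAD ran from -0.18 to 0.11, FAD DKO minus wild type from -0.13 to 0.29, and FAD minus wild type from -0.10 to 0.31 on the log2 scale. Dmgdh, a mitochondrial enzyme of choline breakdown that lies before Arsb, differed by -0.13 between FAD DKO and wild type (SE 0.111, adjusted p = 0.812). Lhfpl2, the next measured gene after it, differed by -0.03 (SE 0.0829, adjusted p = 0.944). Jmy, a regulator of actin assembly, had the largest of these differences at 0.29 (SE 0.11, adjusted p = 0.532). Of the 10 neighbours, 6 had a mean signal above the median of all probe sets.

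**Figure D2:**
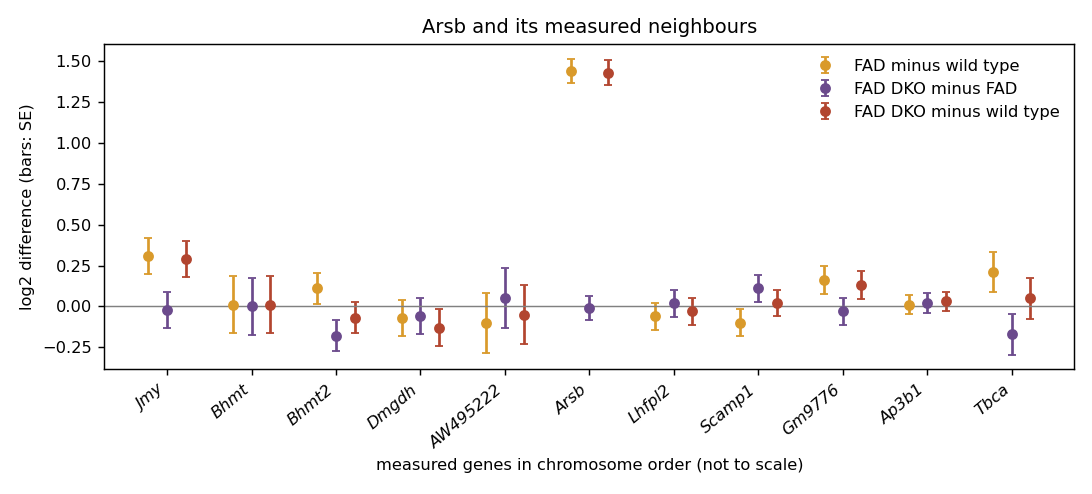
Log2 differences of Arsb and the 5 nearest measured genes on each side, in chromosome order but not to scale, for the 3 comparisons, with bars of 1 SE. Arsb stands at 1.44 and 1.43 over wild type, and its neighbours lie between -0.18 and 0.31.

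The 5 genes whose values, centred on their own mean, lay closest to those of Arsb over the 9 arrays were Gas2l3, ND3, Ank, C920009B18Rik and Myo1e. Their root mean square differences from Arsb were 0.239, 0.245, 0.247, 0.247 and 0.268, against a median of 0.691 over all genes. These arrays are in 3 genotypes, so the measure is mostly a likeness of 3 group means. Ank, a membrane protein of pyrophosphate export, read 8.89, 8.98 and 9.21 in FAD DKO, 8.36, 9.01 and 8.54 in FAD, and 7.76, 7.45 and 7.46 in wild type. ND3, a complex I protein that the mitochondrial genome encodes, read 12.57, 12.43 and 12.70 in FAD DKO, 12.61, 12.67 and 12.51 in FAD, and 11.66, 11.63 and 11.54 in wild type. In all 5 every FAD DKO and FAD array lay above every wild type array, a pattern the measure picks. Myo1e, a myosin of the actin cortex, departed from Arsb most among them, since it averaged 7.76 ± 0.219 in FAD DKO and 8.31 ± 0.125 in FAD (SD, n = 3 each). The nearest of the other 8 enzymes and activator was Gusb, at 0.587.

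**Figure D3:**
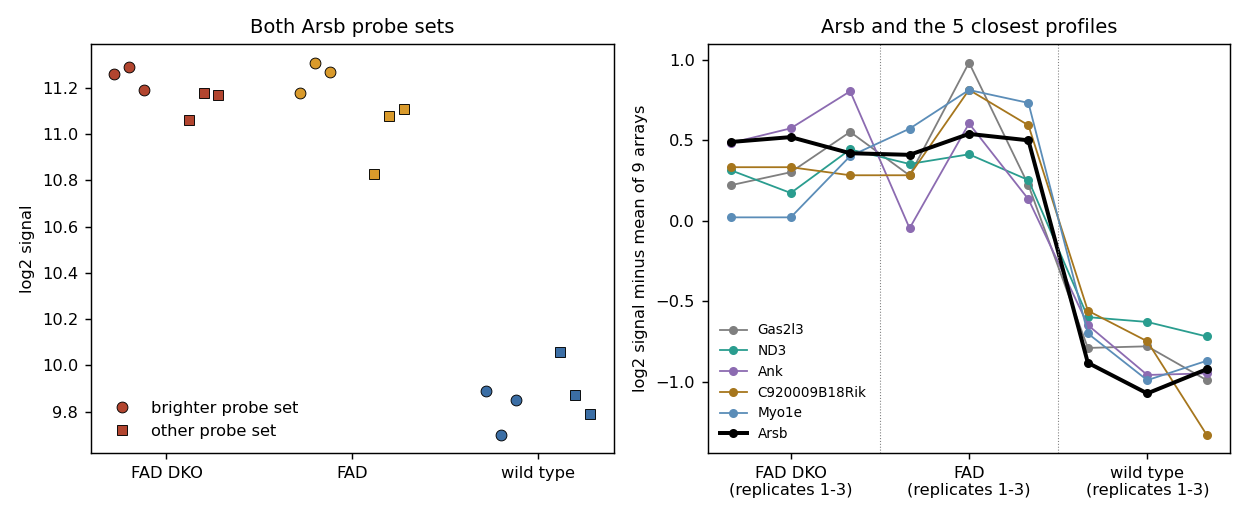
Left, log2 signal of both Arsb probe sets on each array in FAD DKO, FAD and wild type; circles are the brighter probe set and squares the other. Right, Arsb and the 5 genes with the closest profiles as log2 signal minus the mean of 9 arrays, with lines joining arrays for reading only; all 6 genes are lowest on the 3 wild type arrays.

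In FAD DKO against FAD, which differ in the Cre allele as well as in the deletion of Hdac1 and Hdac2, 0 of the 9 genes passed in limma. Over all genes 5 of 22180 passed, which is 0.0225%, so a count of 0 among 9 was near that background. At an unadjusted p under 0.05 there were 2 of 9, Arsg and Idua, both lower in FAD DKO, where 8.10% of all genes reached it. These were also the 2 of 9 whose FAD DKO and FAD arrays did not overlap, both lower, against 11.9% of all genes in either direction, 6.50% lower and 5.38% higher. The median difference of the 9 was -0.05, with 3 above 0 and 6 below, and the median of all genes was 0.01.

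Arsg, the lysosomal sulfatase that removes the rare 3-O-sulfate of heparan sulfate glucosamine, read 6.81, 6.93 and 7.29 in FAD DKO, 7.52, 7.40 and 7.45 in FAD, and 7.64, 7.34 and 7.29 in wild type. The FAD DKO arrays lay below the FAD arrays by at least 0.113, and their highest value all but touched the lowest wild type one. Arsg differed by -0.45 between FAD DKO and FAD (SE 0.134, adjusted p = 0.427 in limma), a 0.735-fold level with an interval from 0.595 to 0.906. Against wild type it stood at -0.41 (SE 0.134, adjusted p = 0.427). The spread of Arsg within FAD DKO, an SD of 0.247, was the widest of any gene of the group in any genotype.

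Idua, the alpha-L-iduronidase that cuts iduronic acid from heparan and dermatan sulfate and is lost in Hurler disease, read 7.89, 8.00 and 7.99 in FAD DKO, 8.24, 8.31 and 8.07 in FAD, and 8.24, 8.07 and 8.05 in wild type. Its 3 FAD DKO arrays were below all others. The difference was -0.25 between FAD DKO and FAD (SE 0.0853, adjusted p = 0.504) and -0.16 between FAD DKO and wild type (SE 0.0853, adjusted p = 0.694). Ids, the sulfatase that acts just before it on the same iduronic acid, read 7.26, 7.28 and 7.35 in FAD DKO, 7.35, 7.39 and 7.38 in FAD, and 7.57, 7.30 and 7.35 in wild type. These groups overlapped or met, and the Ids difference was -0.07 between FAD DKO and FAD (SE 0.08, adjusted p = 0.82).

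Sgsh, the sulfamidase that removes N-sulfate from heparan sulfate and is lost in a form of Sanfilippo disease, read 5.96, 5.85 and 5.78 in FAD DKO, 5.93, 5.96 and 5.87 in FAD, and 6.21, 6.25 and 6.11 in wild type. It was lower on every FAD DKO and FAD array than on any wild type array, by at least 0.145. FAD DKO differed from wild type by -0.32 (SE 0.0738, adjusted p = 0.192), a 0.799-fold level with an interval from 0.712 to 0.897. FAD lay 0.27 below wild type on the log2 scale (difference -0.27), and FAD DKO minus FAD was -0.05 (SE 0.0738, adjusted p = 0.862). Arsb and Sgsh thus stood on opposite sides of wild type in both FAD genotypes, though the Sgsh difference did not pass.

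Gusb, the beta-glucuronidase that removes glucuronic acid and is lost in Sly disease, read 9.39, 9.32 and 9.36 in FAD DKO, 9.31, 9.63 and 9.52 in FAD, and 9.28, 9.27 and 9.09 in wild type. Every FAD DKO and FAD array was above the highest wild type array, but by only 0.0405 for FAD DKO and 0.0276 for FAD. The FAD DKO minus wild type difference was 0.14 (SE 0.0943, adjusted p = 0.759), and FAD stood 0.27 above wild type. FAD DKO differed from FAD by -0.13 (SE 0.0943, adjusted p = 0.727), with an interval from -0.34 to 0.08.

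Galns, which removes the 6-sulfate of N-acetylgalactosamine in chondroitin sulfate and of galactose in keratan sulfate, read 6.61, 6.43 and 6.39 in FAD DKO, 6.37, 6.38 and 6.41 in FAD, and 6.34, 6.36 and 6.38 in wild type. FAD DKO replicate 1 stood above the other 8 arrays, which spanned 6.34 to 6.43. The difference was 0.09 between FAD DKO and FAD (SE 0.0713, adjusted p = 0.736) and 0.12 between FAD DKO and wild type (SE 0.0713, adjusted p = 0.736). Galns and Arsb act on different sulfates of the same chondroitin sugar, and Galns stood 0.02 above wild type in FAD.

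Arsa read 6.22, 6.13 and 6.13 in FAD DKO, 5.92, 6.13 and 6.13 in FAD, and 6.15, 5.96 and 6.07 in wild type. The 3 groups overlapped, and the FAD DKO minus FAD difference was 0.10 (SE 0.0828, adjusted p = 0.772). Sumf1, which activates all the sulfatases named here, read 7.24, 7.03 and 7.21 in FAD DKO, 7.03, 7.03 and 7.04 in FAD, and 7.03, 7.03 and 6.91 in wild type. FAD DKO replicates 1 and 3 were the highest arrays for Sumf1, and replicate 2 sat with FAD and wild type. Its difference was 0.13 between FAD DKO and FAD (SE 0.0758, adjusted p = 0.679) and 0.17 between FAD DKO and wild type (SE 0.0758, adjusted p = 0.611).

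In FAD DKO against wild type 1 of the 9 genes, Arsb, passed in limma, where 31 of all genes did, which is 0.140% in either direction and 0.0947% higher. At an unadjusted p under 0.05 there were 4 of 9, Arsb, Sgsh, Arsg and Sumf1, against 8.14% of all genes. The groups did not overlap for 6 of 9 genes, 3 higher (Arsb, Galns and Gusb) and 3 lower (Arsg, Sgsh and Idua) in FAD DKO, against 11.9% of all genes, 5.77% higher and 6.15% lower. The share among the 9 was higher than that background, but it has no test, Arsb may have been chosen with its wild type level in view, and the gap was under 0.05 for Galns, Gusb, Idua and Arsg. In FAD against wild type, 1 of 9 passed, Arsb, against 0.0406% of all genes in either direction and 0.0316% higher, from which nothing is read because of how Arsb was chosen. There the arrays of 3 of 9 genes did not overlap, Arsb and Gusb higher and Sgsh lower, beside 11.8% of all genes, 6.37% higher and 5.46% lower. Nothing is read from these counts either. Leaving Arsb out, the other 8 genes lay between 0.751 and 1.13 times wild type in FAD DKO, between 0.735 and 1.09 times FAD in FAD DKO, and between 0.83 and 1.21 times wild type in FAD. A passing difference of the size of the Arsb one was thus not seen in any of the 8, while smaller differences are within what 3 arrays per group leave uncertain.

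**Figure D4:**
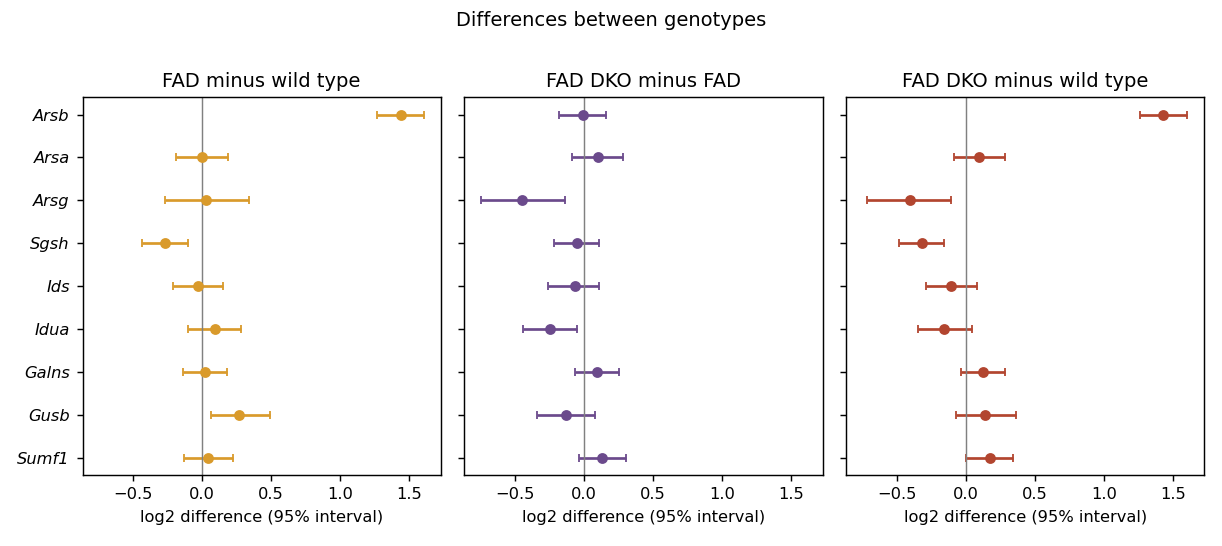
Log2 differences of the 9 genes with 95% intervals from the fit over all genes, 1 panel per comparison. Arsb stands at 1.44 and 1.43 over wild type and at -0.01 between FAD DKO and FAD; the points of the other 8 genes lie between -0.45 and 0.27.

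The other genes of glycosaminoglycan metabolism were read from 7 lists chosen by function, 96 genes of which 87 were measured. In limma 0 of 87 passed in any of the 3 comparisons. At an unadjusted p under 0.05 there were 8 for FAD DKO minus FAD, 13 for FAD DKO minus wild type and 13 for FAD minus wild type, against 8.10%, 8.14% and 8.43% of all genes. The medians of the 87 differences were 0.03, 0.02 and -0.02 in the same order of comparisons. By signal, 57 of the 87 had a mean above the median of all probe sets, as had all 9 genes described so far.

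Among 6 measured genes of other sulfatases and the Sumf1 paralogue Sumf2, 4 lay above 0 and 2 below in FAD DKO against wild type, and 0 passed. Sulf2, an endosulfatase of the cell surface that trims 6-O-sulfates from heparan sulfate, read 6.61, 6.77 and 7.12 in FAD DKO, 6.56, 6.64 and 6.63 in FAD, and 6.23, 5.91 and 5.95 in wild type. Every FAD DKO and FAD array was above every wild type array. Sulf2 differed by 0.80 between FAD DKO and wild type (SE 0.133, adjusted p = 0.0697), a 1.74-fold level, and by 0.58 between FAD and wild type (SE 0.133, adjusted p = 0.291). It passed in FAD DKO against wild type with a low-signal filter, at an adjusted p of 0.0232, and with a variance that was trended and robust, at 0.0251. Arsk, a lysosomal sulfatase of glucuronic acid 2-sulfate, read 7.62, 7.56 and 7.75 in FAD DKO against 7.88, 7.91 and 7.92 in wild type, a difference of -0.26 (SE 0.0775, adjusted p = 0.371).

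Among 9 other measured genes of glycosaminoglycan breakdown, 7 lay above 0 and 2 below in FAD DKO against wild type, with a median of 0.02, and 0 passed. Hpse, the heparanase that cuts heparan sulfate chains internally, read 5.54, 5.06 and 5.94 in FAD DKO, 4.77, 5.18 and 4.89 in FAD, and 4.42, 4.25 and 4.53 in wild type. The 3 wild type arrays were lowest, and the FAD DKO arrays spread over 0.88. Hpse differed by 1.12 between FAD DKO and wild type (SE 0.203, adjusted p = 0.0894), and it passed with a trended and robust variance model (0.0437). Its mean signal was under the low-signal filter. With the mean of its probe sets, the Hpse difference was larger, at 1.56, and did not pass. FAD minus wild type was 0.55 for Hpse in the main fit and 0.89 with that mean. The size of the Hpse difference thus depended on the probe set used. Hexa, the alpha subunit of beta-hexosaminidase, differed by 0.21 between FAD DKO and wild type (SE 0.0921, adjusted p = 0.616). Hgsnat, which acetylates heparan sulfate glucosamine, differed by 0.19 between FAD and wild type (SE 0.0801, adjusted p = 0.586).

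Lysosomal sulfatases and glycosidases reach the lysosome mainly by mannose-6-phosphate tags. Of 6 genes of lysosomal sorting, not all of them specific to that tag, 0 passed. Gnptab, the phosphotransferase that makes the tag, averaged 6.78 ± 0.168 in FAD DKO, 7.07 ± 0.21 in FAD and 6.76 ± 0.114 in wild type (SD, n = 3 each). Its difference was -0.29 between FAD DKO and FAD (SE 0.125, adjusted p = 0.603) and 0.31 between FAD and wild type (SE 0.125, adjusted p = 0.573). Gnptg, the gamma subunit of that enzyme, differed by 0.19 between FAD DKO and wild type (SE 0.0808, adjusted p = 0.599). Sort1, a sorting receptor, differed by -0.20 between FAD DKO and wild type (SE 0.0719, adjusted p = 0.487).

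On the side of synthesis, 0 of 14 chondroitin and dermatan sulfate genes passed, and the medians lay between -0.05 and 0.01 in the 3 comparisons. Chst11, the sulfotransferase that adds the 4-sulfate that arylsulfatase B removes, read 7.47, 7.65 and 7.47 in FAD DKO, 7.74, 7.66 and 7.80 in FAD, and 7.42, 7.28 and 7.17 in wild type. The FAD arrays were highest and the wild type arrays lowest, with no overlap between the 3 groups. Chst11 differed by 0.44 between FAD and wild type (SE 0.088, adjusted p = 0.192) and by -0.21 between FAD DKO and FAD (SE 0.088, adjusted p = 0.603). Chsy1, a chondroitin chain polymerase, read 9.06, 9.07 and 9.0 in FAD against 9.33, 9.45 and 9.38 in wild type. Its difference was -0.34 between FAD and wild type (SE 0.0676, adjusted p = 0.193), past the threshold with a trended and robust variance model (0.0486), and -0.25 between FAD DKO and wild type (SE 0.0676, adjusted p = 0.311).

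Of 13 genes of the linker, of hyaluronan synthesis and of sulfate donor supply, 0 passed. Xylt1, the xylosyltransferase that starts the chains on proteoglycan cores, read 6.55, 6.72 and 6.71 in FAD DKO, 6.70, 7.23 and 6.88 in FAD, and 6.24, 6.10 and 6.18 in wild type. All FAD DKO and FAD arrays lay above the wild type arrays. Xylt1 differed by 0.76 between FAD and wild type (SE 0.126, adjusted p = 0.133), past the threshold with the low-signal filter (0.0456) and under the trended, robust variance (0.0457), and by 0.49 between FAD DKO and wild type (SE 0.126, adjusted p = 0.278). Fam20b, a xylose kinase of the linker, differed by 0.20 between FAD DKO and wild type (SE 0.0793, adjusted p = 0.542). Papss1, which makes the sulfate donor, differed by 0.17 between FAD and wild type (SE 0.0625, adjusted p = 0.525). B3galt6, a linker galactosyltransferase, differed by -0.18 between FAD DKO and FAD (SE 0.0903, adjusted p = 0.643).

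Among 17 heparan sulfate synthesis genes 0 passed and 5 had an unadjusted p under 0.05 in FAD DKO against FAD, where 10 lay above 0 and 7 below. Over all genes 0.0225% passed and 8.10% had an unadjusted p under 0.05 in that comparison, and the list's count has no test. Ext1, a heparan sulfate polymerase subunit, read 7.10, 6.97 and 6.92 in FAD DKO against 7.53, 7.27 and 7.28 in FAD, a difference of -0.36 (SE 0.0857, adjusted p = 0.305). Glce, the epimerase that makes iduronic acid in heparan sulfate, differed by -0.31 (SE 0.0907, adjusted p = 0.407). Extl3, which starts heparan sulfate chains, differed by -0.21 between FAD DKO and wild type (SE 0.0936, adjusted p = 0.614). Hs3st2, a 3-O-sulfotransferase that adds the group Arsg removes, had a mean signal under the low-signal filter. It went the other way from Ext1 and Glce in FAD DKO against FAD, at 0.45 (SE 0.153, adjusted p = 0.504 in limma). Between FAD DKO and wild type Hs3st2 differed by 0.36 (SE 0.153, adjusted p = 0.594).

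Of 22 genes, proteoglycan cores and the hyaluronan receptor Cd44, 0 passed, and the medians ran from -0.04 to 0.05. Cspg4, a chondroitin sulfate proteoglycan best known from oligodendrocyte precursors and pericytes, averaged 5.97 ± 0.159 in FAD DKO and 5.41 ± 0.327 in wild type, a difference of 0.56 (SE 0.15, adjusted p = 0.309 in limma). The syndecan Sdc1 differed by 0.27 between FAD DKO and wild type (SE 0.0856, adjusted p = 0.414), at a mean signal under the low-signal filter. Sdc3 differed by 0.26 between FAD DKO and FAD (SE 0.136, adjusted p = 0.644). Cd44 averaged 5.34 ± 0.212 in FAD and 5.03 ± 0.0513 in wild type, a difference of 0.31 (SE 0.114, adjusted p = 0.535 in limma), at a mean signal under the low-signal filter.

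**Figure D5:**
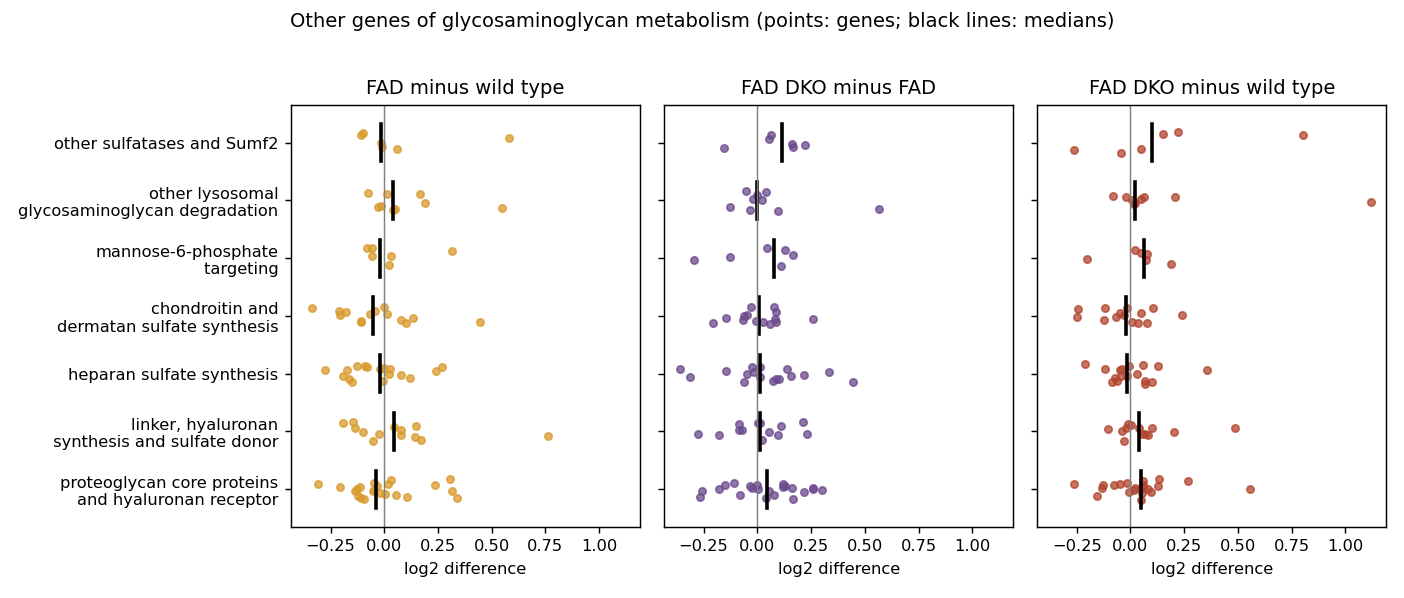
Log2 differences of 87 further genes in 7 lists, 1 point per gene, with the list median as a black line, for the 3 comparisons. The medians lie between -0.05 and 0.11; Hpse at 1.12 and Sulf2 at 0.80 in FAD DKO minus wild type and Xylt1 at 0.76 in FAD minus wild type lie farthest to the right.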

How the data were processed

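The authors deposited log2 signals per probe set for 9 one-colour arrays, and RMA is the tool named in the submitters' processing notes. That method corrects background, quantile-normalizes and sums up the probes of a set. That the scale is log2 follows from the range of the values, and no software version is given in the sources used here. RNA was amplified and biotin-labelled, per the labels' protocols. Detection calls were not used here, and the number of arrays limits the precision.

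Of 41345 probe sets, 23521 had 1 gene symbol, and 23328 of these matched the RefSeq table of GRCm38.p6 by gene ID. The probe set with the highest mean stood for each of 22180 genes. Differences came from limma 3.58.1 in R 4.3.3, 1 fit of 9 arrays with a mean per group (6 residual degrees of freedom, 8.98 after moderation), with two-sided p-values, Benjamini-Hochberg adjustment across the 22180 genes and a call at an adjusted p under 0.05. On simulated data with 200 changed genes of 22180, the FAD DKO minus wild type fit recovered 87.5% of genes changed 2-fold. Of its calls, 5.06% were false. The simulated noise was independent and the 200 changes equal in size, while the real fit called 31 genes. With more true changes the adjusted threshold is looser, so 87.5% is no estimate of sensitivity in the real data. There Hpse, at 2.17-fold, did not pass (adjusted p = 0.0894 in limma).

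The genes and lists were chosen with earlier results of these data known. The text names all 9 genes, those of each list with the smallest p (the 2 smallest in each comparison), and the 5 profiles closest to Arsb. Neighbours of Arsb were looked up after its values were seen. No array was a copy of another: the smallest SD of a difference between 2 arrays was 0.225. The low-signal filter kept genes with a mean of at least 5.35, the median of all probe sets. Figures used Python 3.11.15 and matplotlib 3.10.9.
A planned search of protein sequences for the sulfatase motif was not run, and protein sequences are not used here.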

Additional observations from a re-analysis of the deposited data

How the results depend on the processing

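Arsb was called higher in FAD DKO than in wild type under all 15 alternatives, with adjusted p from 6.78e-06 to 0.00775 and differences from 1.37 to 1.47 when 1 array was left out; in FAD minus wild type that range was 1.38 to 1.48, and the mean of its probe sets gave 1.27. None of this is independent support, since the wild type arrays are shared with the difference for which Arsb is taken to have been chosen. FAD DKO minus FAD, near 0 for Arsb, changed sign to 0.06 with the mean of probe sets and ranged from -0.05 to 0.02 with 1 array left out. The other 8 genes passed in none of the tested alternatives, with a smallest adjusted p of 0.0674 in FAD DKO minus wild type and 0.215 in FAD DKO minus FAD. The count over all genes moved more. For FAD minus wild type it was 9, and 33 with the low-signal filter, 14 with quantile normalization, 43 with a trended and robust variance, 5 with only the 2 groups compared, and 8 to 12 with 1 array left out. For FAD DKO minus FAD it was 5, and 11, 3, 12 and 0 under the same settings, 2 with the replicate block, and 0 to 5 with 1 array left out. For FAD DKO minus wild type it was 31, and 117 with the filter, 124 with the trended and robust variance, 13 with only the 2 groups, 11 with the replicate block, and 2 to 28 with 1 array left out. The lowest count, 2, came without wild type replicate 2 or FAD DKO replicate 3, and the count of 0 for FAD DKO minus FAD without FAD replicate 2 or FAD DKO replicate 3. Leaving out any wild type or FAD DKO array, or FAD replicate 3, moved the 31 by over 1.5 times. The filter tests fewer genes (11532) and also re-estimates the shared spread from them, and 2 groups or 8 arrays give fewer samples. The cause of any of these moves was not tested. Same-numbered arrays share only a number, with correlations of their deviations from -0.11 to 0.122, so the block is no pairing. Signal over background was not analysed, which limits what dim genes such as Hpse show.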
